A study of Drosophila melanogaster with 2 samples.

Results

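The genes examined here encode subunits of Mediator and of TFIID, and the question was how often Bab2 was found at their start sites. Members were taken by a rule on gene symbols that uses no measured value: a protein-coding gene of the dm6 annotation entered if its symbol was MED or Taf followed by a digit. This gave 40 of 13945 protein-coding genes, 25 MED genes and 15 Taf genes. The binding data were ChIP-seq peak lists for Bab2 (bric-à-brac 2), a BTB-domain transcription factor, from whole Drosophila melanogaster embryos of pooled sex aged 0 to 24 h. The flies, strain bab2-GFP, are a transgenic line that makes Bab2 fused at its C-terminal end to eGFP, and chromatin was precipitated with anti-GFP. All data belong to a single group of 2 libraries (replicates 2 and 3, from separate biosamples), so no groups could be compared and no test was made. Whole embryos mix all cell types, so binding in few cells and weak binding in many cannot be told apart, and a tagged transgene need not match the endogenous protein in level or in cells. The experiment that the labels name as a possible control was not analysed here.

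Mediator is a large coactivator that links DNA-bound activators to RNA polymerase II, and it is built of head, middle and tail modules around the scaffold subunit MED14, with a kinase module that can dissociate. TFIID is the general factor that recognises core promoters; it consists of the TATA-binding protein and the TBP-associated factors (TAFs), many of which pair through histone folds. Nearly all cells need both complexes. The symbol rule misses some subunits: the Mediator genes ix, kto, skd, Cdk8 and CycC, the TATA-binding protein gene Tbp, and the testis homologues nht, can, mia and sa. Those 10 genes are counted separately below. It includes Taf12L, a testis homologue of Taf12.

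Replicate 2 came with a dm6 list of 27372 peaks and replicate 3 with one of 25804, and a list for both replicates together, called pooled here, had 24109. These 3 relaxed lists hold background along with peaks. The optimal list of 4720 peaks was thresholded by the authors on the irreproducible discovery rate, a measure of agreement between replicates. Each peak has a summit and a signal, the authors' enrichment value on a scale the sources do not describe. A gene was scored in a list when a summit lay at most 500 bp from one of its transcription start sites (TSSs), and "bound" below means scored in the optimal list. Read depth is unknown, and no value for a single peak has an error of its own.

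The DNA under the strongest summits is shown first, as the sites on which the results below turn. Each line gives 101 bases centred on a summit (release 6, from RefSeq), 5′ to 3′ on the strand of the member gene. Capitals mark matches on either strand to 10 short promoter motifs. Of the bound members, those with more than 30 bases of exon in the window and those at MED16 and Taf5 are not shown. The last sequence, at Taf9, is the strongest summit of an unbound member and serves as contrast.

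MED30, chr3L:654221-654321, minus strand: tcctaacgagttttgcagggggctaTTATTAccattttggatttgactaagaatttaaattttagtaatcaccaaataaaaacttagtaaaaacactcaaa

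MED27, chr3R:5654953-5655053, plus strand: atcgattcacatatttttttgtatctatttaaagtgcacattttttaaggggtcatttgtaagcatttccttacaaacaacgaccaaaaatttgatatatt

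MED7, chr3R:10761062-10761162, minus strand: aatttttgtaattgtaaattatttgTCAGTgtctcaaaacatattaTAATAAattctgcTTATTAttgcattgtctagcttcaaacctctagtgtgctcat

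Taf4, chr3L:16113636-16113736, plus strand: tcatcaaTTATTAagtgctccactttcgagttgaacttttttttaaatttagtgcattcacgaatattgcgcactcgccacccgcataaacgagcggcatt

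MED17, chr3R:18188773-18188873, plus strand: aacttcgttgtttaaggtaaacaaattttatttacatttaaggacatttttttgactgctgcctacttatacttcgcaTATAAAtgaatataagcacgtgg

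Taf9, chrX:17842080-17842180, plus strand: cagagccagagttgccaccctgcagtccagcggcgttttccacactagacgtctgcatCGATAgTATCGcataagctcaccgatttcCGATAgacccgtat

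The windows of MED30, MED27, MED7 and MED17 were rich in A and T, with a GC content of 28.7%, 26.7%, 26.7% and 29.7%. Taf4 had 39.6% and Taf9 53.5%. The capitals in MED30 and Taf4 are TTATTA, which is the AT-rich element TAATAA read on the other strand. MED7 held that element in both orientations and an initiator match, TCAGT. MED17 held TATAAA, and MED27 held no match. At Taf9 the capitals are copies of CGATA in opposite orientations, letters recognised by the insulator protein BEAF-32.

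Bab2 lay at the start of 12 of the 40 genes (30%, Clopper-Pearson 95% interval 16.6% to 46.5%, which covers counting error only). Over all protein-coding genes the share was 20.1%, inside that interval. Among them were 8 of 25 MED genes (32%) and 4 of 15 Taf genes (26.7%). The strongest peaks were at MED30 and MED27 of the tail, MED7 of the middle module and Taf4, a histone-fold TAF. The median signal of the 12 was 183, against 145 over the 2797 bound genes, and 8 of the 12 exceeded that median.

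In the Mediator tail, which receives activators, 3 of 8 genes were bound, where the share of all genes gives 1.60. The counts by module rest on the placement of genes in the lists used here, are small and were not tested. MED30 (FBgn0035149) had a signal of 621 in the optimal list (rank 102 of 4720), 289 in replicate 2 and 332 in replicate 3. Its peak ran from 654088 to 654409 on 3L, with the summit 182 bp upstream of the TSS. MED27 (FBgn0037359) had 485 (rank 172), with 185 in replicate 2 and 294 in replicate 3, and a peak from 5654901 to 5655170 on 3R with the summit 136 bp upstream. The optimal list was drawn from the same libraries, so that high ranks in both replicates were largely given by it. MED16 (FBgn0034707, 2R, 22182808 to 22183231) had 146, with 59.2 in replicate 2 and 84.1 in replicate 3. The other 5 tail genes, MED15, MED23, MED24, MED25 and MED28, were not bound.

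The middle module had 3 of 9 genes bound, where the share of all genes gives 1.81. MED7 (FBgn0051390, 3R, 10760976 to 10761215) had a signal of 412 at rank 257, with 161 in replicate 2 and 251 in replicate 3, and its summit lay 80 bp upstream. MED4 (FBgn0035754, 3L, 7250459 to 7250882) had 219, with 99.5 in replicate 2 and 121 in replicate 3. Its summit lay 144 bp upstream of the TSS, in an exon of the antisense RNA gene asRNA:CR43470. MED31 (FBgn0037262, 3R, 4641579 to 4642002) had the weakest optimal peak of all members at 96.7, with 46.3 in replicate 2 and 55.0 in replicate 3. MED1, MED9, MED10, MED19, MED21 and MED26 were not bound.

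In the head, which contacts the polymerase, 2 of 7 genes were bound, where the share of all genes gives 1.40. MED17 (FBgn0038578), the gene of a central head subunit, was the only member with more than a single optimal summit. The stronger (3R, 18188611 to 18189034) had 202 and lay 249 bp upstream of the TSS, with 67.3 in replicate 2 and 135 in replicate 3. The weaker (3R, 18188976 to 18189106) had 175 and lay 48 bp upstream, with 57.7 in replicate 2 and 85.7 in replicate 3, and its window held the DRE motif. MED6 (FBgn0024330, 3R, 9767602 to 9768025) had 163, with 70.8 in replicate 2 and 88.8 in replicate 3. It has 5 annotated TSSs, and the summit lay 1 bp from one of them, in the 5' UTR. MED8, MED11, MED18, MED20 and MED22 were not bound, nor was MED14, the scaffold.

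Among the TAFs, Taf4 (FBgn0010280, 3L, 16113625 to 16113799), whose product anchors TFIID's core, stood above the rest with a signal of 308 (rank 522), 131 in replicate 2 and 174 in replicate 3. Its summit fell in an intron of Taf4, 104 bp upstream of an internal TSS. It was the only one of 11 histone-fold TAF genes that was bound, where the share of all genes gives 2.21. Of the 4 TAF genes of other structure 3 were bound, where it gives 0.802. Both numbers of genes are small and the split was not tested. Taf5, a WD-repeat subunit (FBgn0010356, 2R, 10879628 to 10880051), had 116, with 56.5 in replicate 2 and 60.9 in replicate 3. Taf7 (FBgn0024909, 3R, 7907268 to 7907691) had 110, with 41.9 in replicate 2 and 69.2 in replicate 3. Taf2, which contacts the initiator (FBgn0011836, 3L, 9888576 to 9888999), had 99.6, with 30.4 in replicate 2 and 68.8 in replicate 3. Taf1, the largest subunit, had no summit at its TSS in any list. Taf5, Taf7 and Taf2 were below the median signal of the optimal list, 128, and Taf4 was 2.41 times it.

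**Figure D1:**
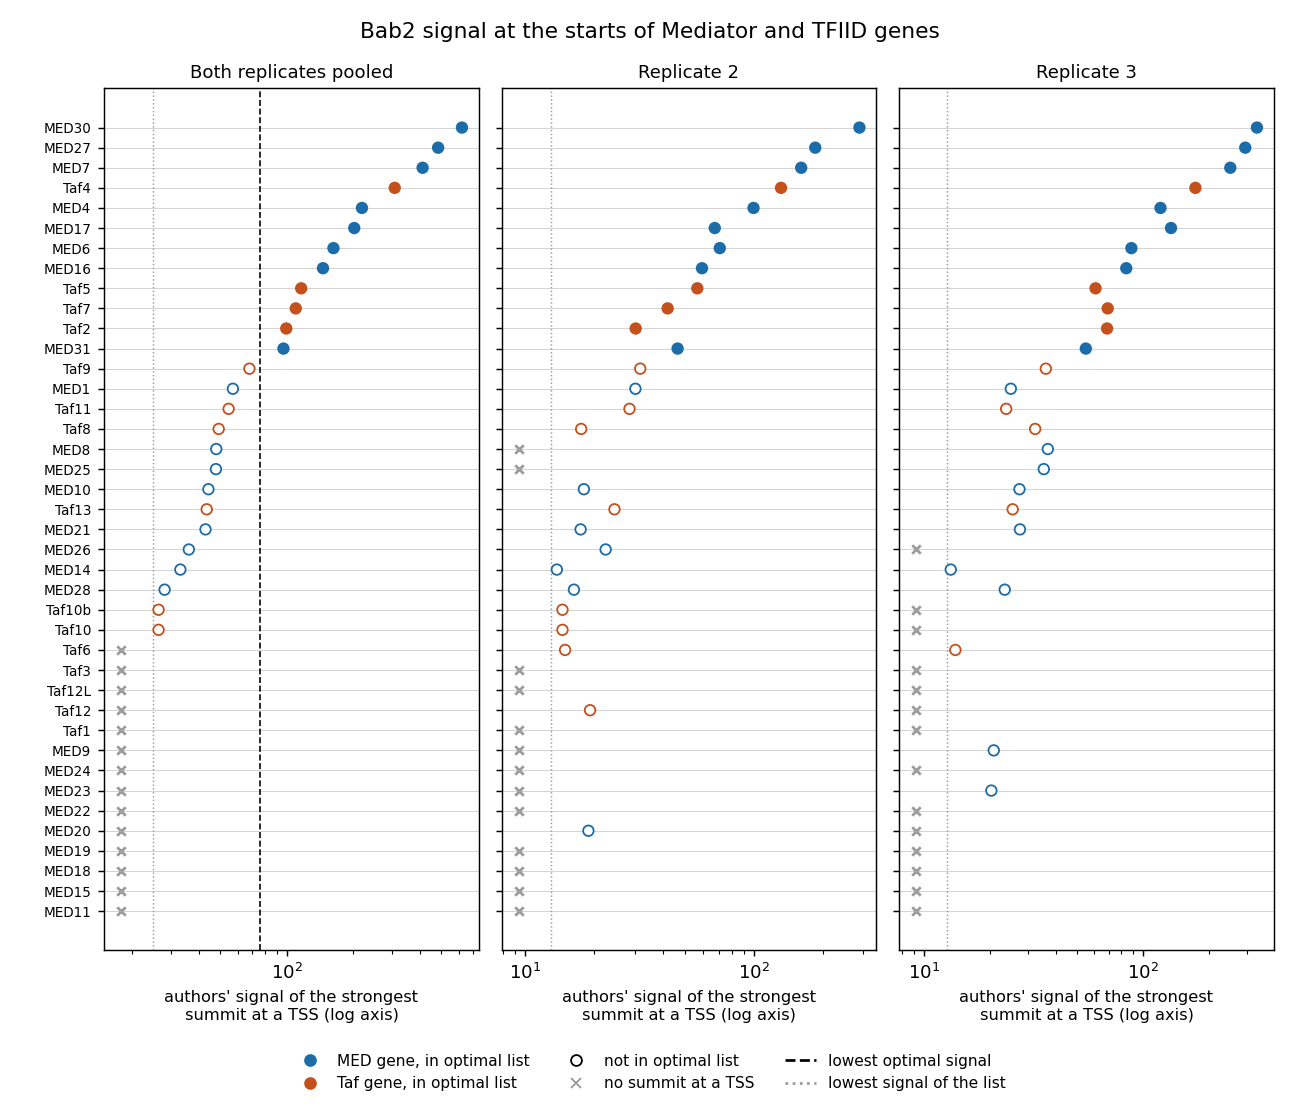
Signal of the strongest summit at a TSS for the 40 members in the pooled, replicate 2 and replicate 3 lists (log axes, authors' values, whose scales differ between lists). Filled points are the 12 genes in the optimal list, open points are others with a summit, and crosses are genes with none; MED30 leads in all 3 panels and the bound genes stand above the rest in the pooled panel.

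The replicates ranked MED30, MED27, MED7 and Taf4 in the same order, and ordered the weaker members differently. The replicate lists need not share a scale: over promoter summits the median ratio of replicate 3 to replicate 2 was 1.27, so ratios at members are read against that median. On the log2 scale the ratio of replicate 3 to replicate 2 ran from 0.11 at Taf5 to 1.18 at Taf2. Over promoter summits its median was 0.35, and the central 90% spanned -0.52 to 1.13. Taf2 alone lay outside this range. It ranked 6177 in replicate 2 and 2479 in replicate 3, so it fell short of the 4720 strongest peaks of replicate 2. MED17, at rank 1868 in replicate 2 and 821 in replicate 3, had the next largest ratio, 1.00. Replicate summits lay within 83 bp of the optimal summit at every member, and MED31 in replicate 3 was the farthest.

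**Figure D2:**
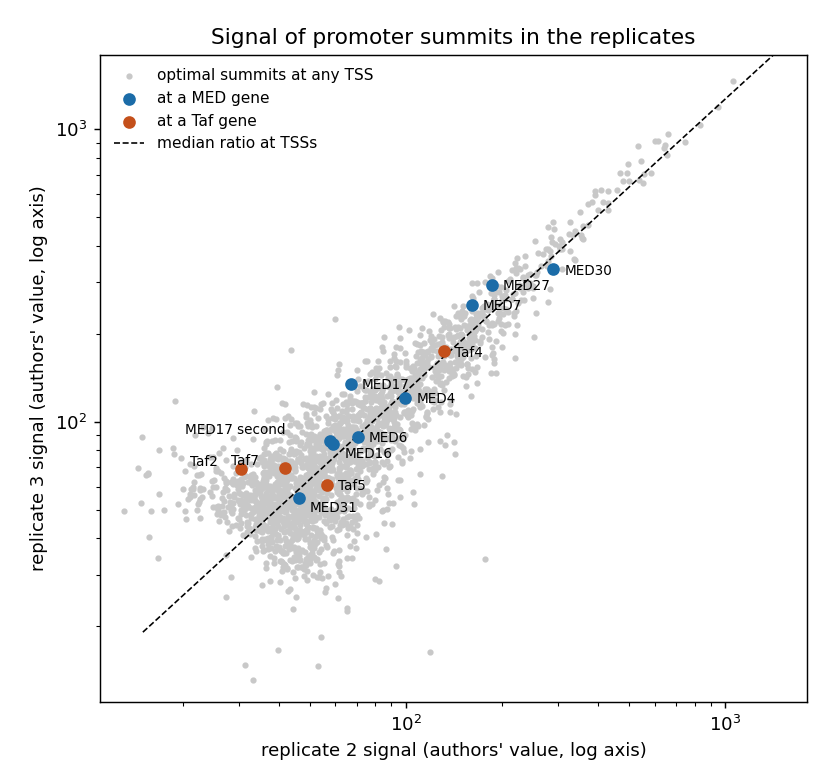
Signal in replicate 2 (x) and replicate 3 (y) of optimal summits at TSSs (grey) and at members (blue MED, orange Taf), on log axes of the authors' values, with a dashed line at the median ratio of 1.27. Taf2 and the stronger MED17 summit lie farthest above the line among members.

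Most of the bound start sites were shared with a neighbour transcribed the other way. At 10 of 12 bound members the summit also lay near a TSS of another protein-coding gene, by the same distance limit. Over all bound genes this held for 59.0%. The neighbours were Rev1 at MED30, elm at MED27, the condensin gene Cap-H2 at MED7, CG12321 at MED17, Naa80 at MED6, CG11170 at MED16, the peroxisome biogenesis gene Pex6 at Taf5, EMC1 at Taf7, the calpain gene CalpB at Taf2, and CG9775 and slx1 at MED31. Only Taf4 and MED4 had none. In 6 of the 12 genes the strongest summit was nearer to the neighbour's TSS than to the member's own: MED30 (92 bp against 182 bp), MED17 (116 against 249), MED31 (47 against 172), Taf2 (26 against 105), Taf5 (134 against 167) and Taf7 (117 against 147). This was not counted over all bound genes, so it is not shown to be particular to members. A peak list cannot tell to which of such paired genes a summit belongs. When every summit was given only to its nearest TSS, members scored fell from 12 to 7 of 40, and all genes from 20.1% to 14.7%. The members lost were MED30, MED31, Taf2, Taf5 and Taf7.

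**Figure D3:**
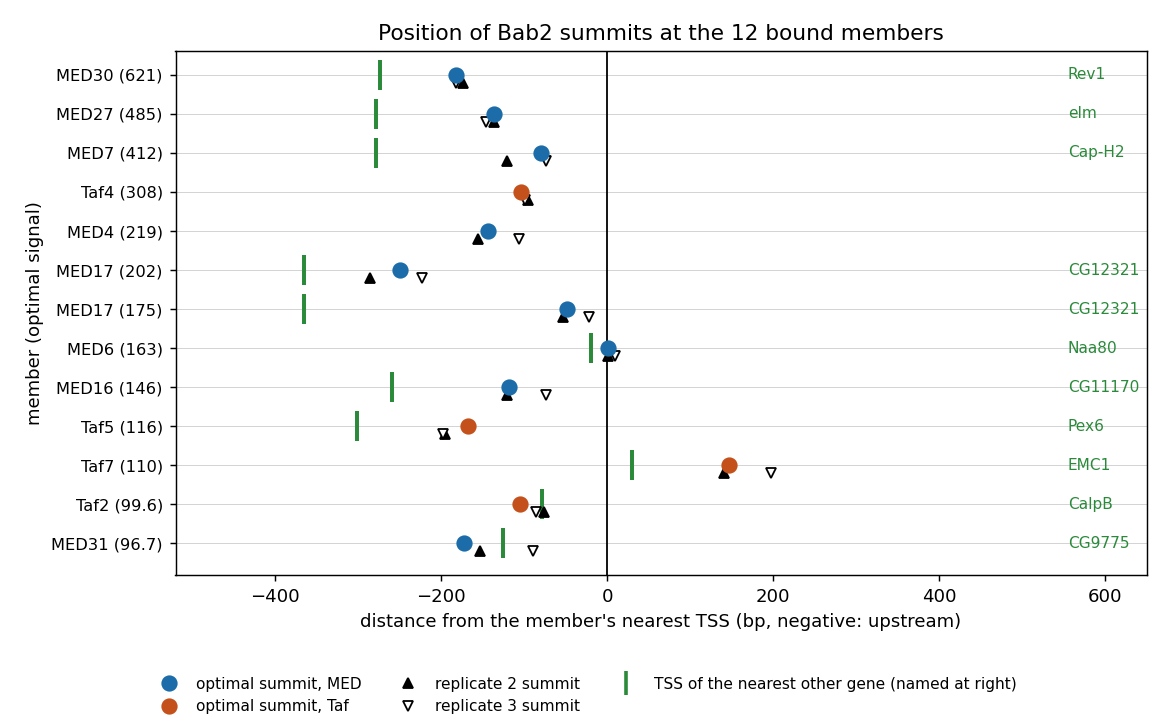
Distance in bp of the 13 optimal summits at the 12 bound members from the member's nearest TSS (circles, negative values upstream), with the replicate summits (triangles) and the TSS of the nearest other gene (green bars, named at right). Many summits fall between a pair of start sites, as at MED30, MED27, MED7 and MED17.

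Summits lay upstream of the TSS in 10 of 12 bound members, with a median position of -127 bp (quartiles -168 and -98.0 bp). All bound genes gave 87.2% upstream and a median of -124 bp. MED6 and Taf7 were the members with a summit downstream, and their summits fell in their own 5' UTRs.

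Members were more often arranged head to head than genes in general, and genes in that arrangement were more often bound; neither difference was tested. A divergent partner, here a protein-coding gene on the opposite strand with a TSS at most 500 bp upstream, was present for 26 of 40 members (65%) and for 27.4% of all genes. Of all genes with such a partner 40.9% were bound, and of those without 12.2%. Among members the shares were 10 of 26 (38.5%) and 2 of 14 (14.3%), close to those of other genes of the same arrangement. Applied to the makeup of the 40 genes, the shares of all genes give 12.3 bound genes, and 12 were found. Without regard to arrangement they give 8.02. Members rarely had many start sites, with 35 of 40 (87.5%) annotated with a single TSS against 73.5% of all genes. Of these 35, 9 were bound (25.7%), and of all genes with 1 TSS 15.5% were.

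Within the head-to-head pairs, bound members had wider gaps between the start sites (median 274.5 bp) than unbound members (97.5 bp). The corresponding medians over all head-to-head genes were 259 bp and 228 bp. All 5 members with a gap of 201 to 300 bp were bound (MED16, MED30, Taf7, MED7 and MED27), where 50.2% of all such genes were. With a gap of at most 100 bp, 2 of 10 were bound (MED6 and Taf2), against 33.5%, and with 101 to 200 bp 1 of 5, against 205 of 683 genes. The order did not continue to the widest gaps: with 301 to 400 bp 2 of 3 were bound (all genes 48.3%), and with 401 to 500 bp 0 of 3 (37.3%). These gap classes were set after the values had been seen. Unbound pairs with close start sites included MED20 and Trf, the gene of a TBP-related factor, 47 bp apart, and Taf10 and Taf10b, paralogous TAF genes 45 bp apart.

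By chromosome arm, on 3R 6 of 10 members were bound (all genes 22.2%), on 3L 4 of 12 (21.1%) and on 2R 2 of 5 (18.4%). These shares rest on few members per arm, 3R being the highest of the arms, and were not tested. On 2L, X and 4 together, a grouping chosen after the values had been seen, 0 of 13 were bound, which allows a share of up to 23.1%. On the same arms 18.9% of all genes were bound, so the 0 is not a difference detectable at this number of genes.

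In the relaxed lists, where background is mixed in, more members were scored. The pooled list held a summit at 26 of 40 members (65%, background 47%), replicate 2 at 27 (67.5%, background 48.3%) and replicate 3 at 26 (65%, background 47.4%). Both replicates scored 22 (55%, background 39.1%), with no limit on the distance between their summits. With the shares of all genes by head-to-head arrangement, 24.2 members are given in the pooled list. No relaxed list held a summit for 9 members (22.5%), and for 42.8% of all genes. These 9 were MED11, MED15, MED18, MED19, MED22, MED24, Taf1, Taf3 and Taf12L.

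Of the 28 unbound members, 14 had a pooled summit, and the share over all unbound genes was not computed. For scale, of all 13945 protein-coding genes 6552 were scored in the pooled list and 2797 in the optimal list. Each of the 14 was below 76.1, the lowest optimal signal. That was largely given by the threshold, since bound members had the same signal in the optimal and pooled lists. Taf9, a histone-fold TAF, came nearest with 67.9 (rank 5486 of the pooled list), and had 31.8 in replicate 2 and 36.1 in replicate 3. MED1 had 57.1 in the pooled list, with 30.3 and 25.0 in replicates 2 and 3. Taf11 had 54.6, with 28.5 and 23.8. Taf8 had 49.3, with 17.5 and 32.3. MED8 had 48.0 in the pooled list and 36.9 in replicate 3, and no summit in replicate 2. A single pooled summit of signal 26.3 scored both Taf10 and Taf10b. In 9 unbound members the replicates disagreed: Taf10, Taf10b, Taf12, MED20 and MED26 were scored in replicate 2 alone, and MED8, MED9, MED23 and MED25 in replicate 3 alone. How often the replicates disagreed over all unbound genes was not computed. Over all 13945 genes, bound or not, replicate 2 scored 6730, replicate 3 scored 6614 and both scored 5446, so disagreement was not confined to members.

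The distance limit itself excluded a single member. MED15, of the tail, had an optimal summit 532 bp upstream of its TSS with a signal of 351 (rank 389), in intergenic sequence, and was scored with a limit of 1000 bp. Among scored members the farthest strongest summit was that of MED17 at 249 bp. The next unscored member was Taf12, 1420 bp from the nearest optimal summit. No unbound member had an optimal summit inside its gene body. Taf6, whose TSS lies 333 bp from that of the histone methyltransferase gene ash1, was not bound, and its nearest optimal summit, at 8469 bp, was the second strongest of the list (signal 2503).

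Other genes of the transcription machinery gave a comparison with members. Of 19 elongation factor genes 12 were bound (63.2%), led by Nelf-E (signal 438), lilli (214) and Nelf-A (165). Of 18 genes of TFIIA, TFIIB, TFIIE, TFIIF and TFIIH 10 were bound (55.6%), led by the TFIIH gene Ssl1 (1520), TfIIA-L (234) and TfIIA-S (199). The SAGA coactivator shares TAFs with TFIID, and these were counted only among the members. The other SAGA genes listed had 9 of 18 bound (50%), led by Gcn5 (325), the acetyltransferase gene, Ada3 (280) and Ada2b (139). RNA polymerase II had 5 of 12 (41.7%), led by Polr2H (434), Polr2F (328) and Polr2J (230). The Mediator and TFIID genes with other symbols had 1 of 10, skd (183), which encodes the MED13 subunit of the kinase module. MED and Taf genes thus had a lower share than all but the last of these lists. The counts given by head-to-head arrangement were 5.19 for elongation factors, 5.35 for the general factors, 5.07 for SAGA and 3.47 for the polymerase, each below the count found, while for the 40 members the count found and the count given differed by less than 1. For the genes with other symbols the count given was 1.79, above the 1 found. Subsets of the members deviated in opposite directions, with 1 found against 3.06 given for histone-fold TAFs and 3 against 1.35 for the other TAFs. The Mediator modules were closer, with 3 found against 2.70 given for the tail, 3 against 2.53 for the middle and 2 against 2.58 for the head. These lists, like the members, were chosen with earlier results of these data known. None of these differences was tested.

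**Figure D4:**
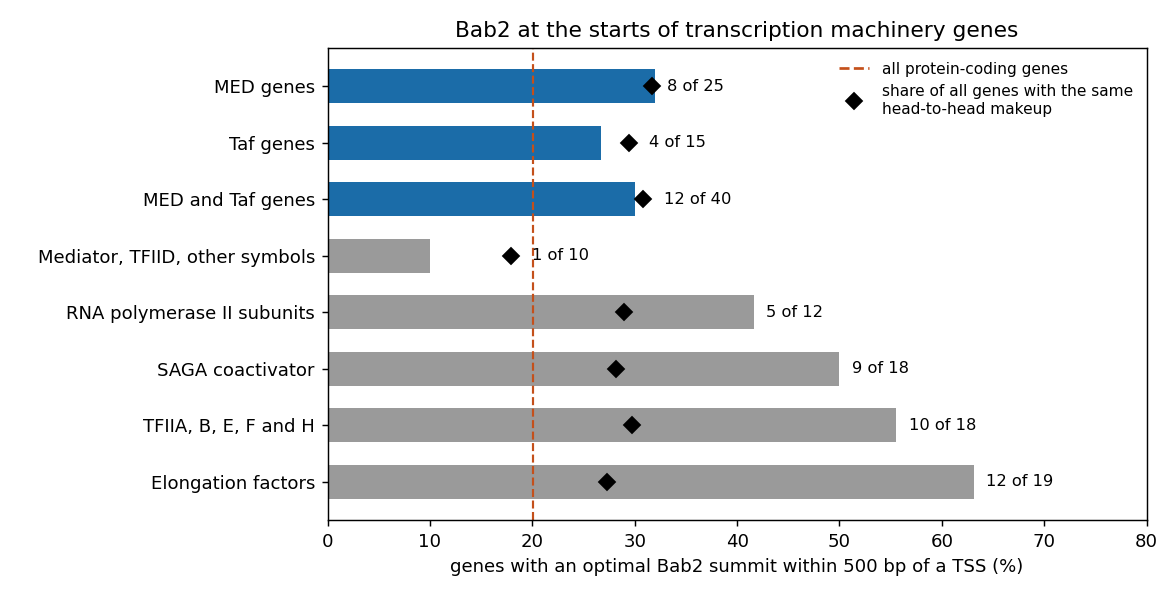
Percent of genes with an optimal Bab2 summit at a TSS in MED and Taf genes (blue bars) and other transcription machinery lists (grey bars), with the count beside each bar. The dashed line is the 20.1% of all protein-coding genes and diamonds give the share that all genes show at the same head-to-head makeup; diamonds lie close to the ends of the blue bars and well inside 4 of the 5 grey ones.

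Motifs were counted in the 101 bases around summits and in the promoters of all genes (250 bases before to 50 after the most upstream TSS), on both strands. Around the 13 member summits the AT-rich element occurred in 3 and TATAAA in 3, against 16.5% and 16.9% of the 2190 optimal summits at TSSs. The DRE (TATCGATA, which contains CGATA) occurred in 1 of 13, against 4.16%. Of the other motifs, CGATA was in 1 of 13 (24.3% of promoter summits), TCAGT in 1 (17.5%), and GAGAG in 0 (9.50%), CAGCTG in 0 (5.94%) and GGTCACAC in 0 (1.78%). AGATAA was in 1 (6.44%). With 13 windows, 1 window is 7.69%, so counts of 0 or 1 do not show a motif to be rarer or more frequent at members. Mean GC content was 32.7% around member summits and 36.7% around promoter summits in general, and ran from 15.8% at Taf5 to 58.4% at MED6. In promoters, the core of Motif 1 (GGTCACAC, recognised by M1BP) occurred in 12 of 40 members (30%) and in 7.70% of all genes. It was found in 2 of 12 bound members, Taf4 and Taf5, and 10 of 28 unbound ones. The promoter window is not always the bound site: at Taf4, MED6 and Taf7 the Bab2 summit lay outside it. At Taf4 and MED6 the bound TSS was an internal one. The DRE occurred in 8 of 40 member promoters (20%) and 9.36% of all, in 2 bound and 6 unbound members. The initiator letters TCAGT occurred in 11 of 40 (27.5%) and in 51.5% of all. The other motifs searched were CAGCTG (the E-box, in 15% of member promoters and 17.7% of all), GAGAG (an element of Trl, 17.5% and 29.7%), AGATAA (for GATA-type factors, 17.5% and 18.7%) and the downstream promoter element written as CGGACGTG (0% and 0.681%). CGATA was in 55% and 47.4%, TATAAA in 52.5% and 45.8%, and TAATAA in 47.5% and 37.2%. A match describes letters in a window and does not show a site.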

How the data were processed

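ChIP-seq for Bab2-eGFP was made from 2 biological replicates of whole embryos, with chromatin sonicated to 200 to 800 bp, per the labels. The authors deposited narrowPeak lists on dm6: a relaxed list per replicate and one for pooled reads, derived from alignments and a control, and an optimal list thresholded on the irreproducible discovery rate, per the README files that the authors supplied. Which aligner and peak caller were used, and the depth, is not stated in the labels or README files. The deposited signal, an enrichment per peak, ranks peaks within a list; ratios between the replicate lists are given only relative to their median over promoter summits, since the scales may differ. The deposited −log10 q-value sat at its ceiling for every bound member and was not used for ranking. Summits (peak start plus offset) were computed 1-based, and dm3 lists were not used.

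TSSs came from the Ensembl 115 annotation of dm6, with 19252 distinct protein-coding positions on 2L, 2R, 3L, 3R, 4 and X. Genes were scored by any summit up to 500 bp from any of their TSSs, and replicate summits were matched within 200 bp. Intervals are Clopper-Pearson at 95%, and a count of 0 is given its limit of 3 over n. Tools were scipy 1.17.1, pandas 2.3.3 and numpy 2.4.6 under Python 3.11.15, with plots by matplotlib 3.10.9. The matching was tested on simulated data.

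Values were given for every member with an optimal summit and for the 5 unbound members with the strongest pooled summit, and for the 3 strongest genes of other lists. Members, lists and motifs were chosen with earlier results of these data known. The lists held 117 names, of which 5 were matched by an older symbol; ix was added, Taf12L placed with the histone-fold TAFs and the spelling of spt4 and Rtf1 corrected after the annotation was read. Alternatives changed the TSS window, the peak threshold, the replicates used, the use of summit or interval, and the assignment of summits. The data form 1 group, so no test between groups and no adjustment for many tests was made.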

Additional observations from a re-analysis of the deposited data

How the results depend on the processing

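Of the 12 bound members, 7 (MED4, MED6, MED7, MED16, MED17, MED27 and Taf4) stayed scored under all 7 alternatives to the scoring. The share of all bound genes that did so was not computed, so this is not shown to be particular to members. A TSS window of 250 bp changed no member, and windows of 1000 bp or peak intervals in place of summits added MED15 alone (13 of 40). With the strongest 4720 peaks of replicate 2 alone in place of the optimal list, 11 members were scored, Taf2 being lost. With those of replicate 3 alone, 12 were scored. Neither of these 2 lists was thresholded on reproducibility. For MED genes both gave 8, for Taf genes 3 and 4, and for all genes 19.6% and 20.1%. With only the optimal peaks above the median signal, 8 members remained, Taf genes fell to 1 and all genes to 11.7%. With each summit given to its nearest TSS, 7 members were scored, among them 1 Taf gene. Members scored in both replicates numbered 22, and 20 when the replicate summits had to lie within 200 bp of each other. They numbered 11 when only the strongest 4720 peaks of each replicate were used. For the 20 and the 11 no share of all genes was computed. The limits on these counts are the small number of genes, unknown read depth, background in the relaxed lists, and shared start sites, which let a single summit score a pair of genes. No paired analysis was possible because there is 1 group.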
